A study of Mus musculus with 11 samples.

Results

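Cadherins are calcium-dependent adhesion proteins of the cell surface. The genes described here were the protein-coding genes whose names consist of Cdh, Cdhr, Fat, Dchs, Celsr, Clstn or Pcdh and a number, which leaves out the clustered protocadherins. The rule used gene names only and found 52 genes of the 34570 genes listed for mouse embryonic stem cells (mESCs) or mouse embryonic fibroblasts (MEFs). All 52 were listed for mESCs, and 51 for MEFs, where Cdhr2 was not listed. Poly(A)+ RNA was sequenced from mESCs (2 WT and 3 Atxn7l3-/- libraries) and MEFs (3 libraries of each genotype), and the question was which RNAs change when ATXN7L3 is lost. ATXN7L3 is an adaptor of the module of the SAGA co-activator complex that removes ubiquitin from histone H2B.

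WT cells were Atxn7l3+/+, and both genotypes came from crosses of heterozygous mice of mixed DBA/2 x C57BL/6 background that carried the same constitutive null allele. No further allele or treatment was labelled. Each mESC line was grown from its own blastocyst, passaged on feeder cells and then kept without them in medium with serum, LIF, 1 uM PD0325901 and 3 uM CH99021. Each MEF culture came from its own E10.5 embryo after the head and gastrointestinal tract had been dissected away. These MEFs are therefore primary, mixed cultures, and in bulk RNA fewer cells of a type and less RNA per cell cannot be told apart.

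Classical cadherins bind the same or a related cadherin on the neighbouring cell and are tied to actin through catenins. Embryonic stem cells are known for E-cadherin (Cdh1), whereas mesenchymal cells such as fibroblasts are known for N-cadherin (Cdh2) and Cdh11. Fat and Dachsous are giant cadherins that bind each other between cells and act in tissue growth and polarity, Celsr proteins are seven-pass receptors of planar cell polarity, calsyntenins are mainly known from synapses and vesicle transport, and non-clustered protocadherins are mostly known from the nervous system. The 52 genes comprised 5 type I and 13 type II classical cadherins, 4 cadherins without a classical tail, 7 tip-link or cadherin-related genes, 6 Fat and Dachsous genes, 3 Celsr genes, 3 calsyntenins and 11 non-clustered protocadherins.

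Library totals ranged from 34515342 to 49602605 counts, so that 3 counts, taken as the lowest countable level of a library, corresponded to 0.0605 to 0.0869 CPM (counts scaled to a common library size). The cadherin genes took 0.170 to 0.206% of all counts in mESCs and 0.253 to 0.443% in MEFs. Atxn7l3 stood at 222 and 223 CPM in WT mESCs and at 3.91, 1.79 and 0.976 CPM in Atxn7l3-/- mESCs (log2 fold change -6.65 ± 0.53, SE, adjusted p = 0.0211). In MEFs it stood at 79.7, 104 and 92.9 CPM in the WT libraries and still at 49.2, 49.5 and 67.3 CPM in the libraries labelled Atxn7l3-/-, which did not pass the test (log2 fold change -0.74 ± 0.21, SE, adjusted p = 0.0715). The paper reports that the ATXN7L3 protein could not be detected in Atxn7l3-/- mESCs or MEFs, so the remaining RNA does not show that the protein was kept. The labelled cell types were present in their markers: the 6 pluripotency markers listed for both cell types summed to 3370 to 4070 CPM in mESCs and to 44.0 to 99.6 CPM in MEFs, and 8 fibroblast markers to 7051 to 42576 CPM in MEFs and 24.8 to 388 CPM in mESCs. The Y-linked genes Ddx3y, Eif2s3y and Uty were expressed in the WT mESCs and in Atxn7l3-/- mESC replicate 3 but were far lower in Atxn7l3-/- mESC replicates 1 and 2 and in WT MEF replicate 3, so the groups were not balanced by sex. Kdm5d, also Y-linked, was low in all Atxn7l3-/- mESCs. It stood at 0.686 CPM in replicate 3 and 0.872 CPM in replicate 1, against 6.66 and 25.1 CPM in WT mESCs. WT MEF replicate 2 alone carried an appreciable level of liver and visceral endoderm markers, at 358 CPM against 0.927 to 9.82 CPM in the other MEFs.

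The plot of all cadherin genes in all libraries shows that few of them were abundant in mESCs and in Atxn7l3-/- MEFs and more of them in WT MEFs. In mESCs, 10 to 12 of the genes reached 1 CPM per kb of exon, a scale on which genes of different length can be compared, and 61.4 to 69.0% of the summed level came from Cdh1. In MEFs, 17 to 28 genes reached that level in the WT libraries and 10 to 14 in the Atxn7l3-/- libraries. None of the genes was without a count in every library of a cell type, although Cdh16, the kidney cadherin, had 3 counts in all mESC libraries together and 1 in all MEF libraries.

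**Figure D1:**
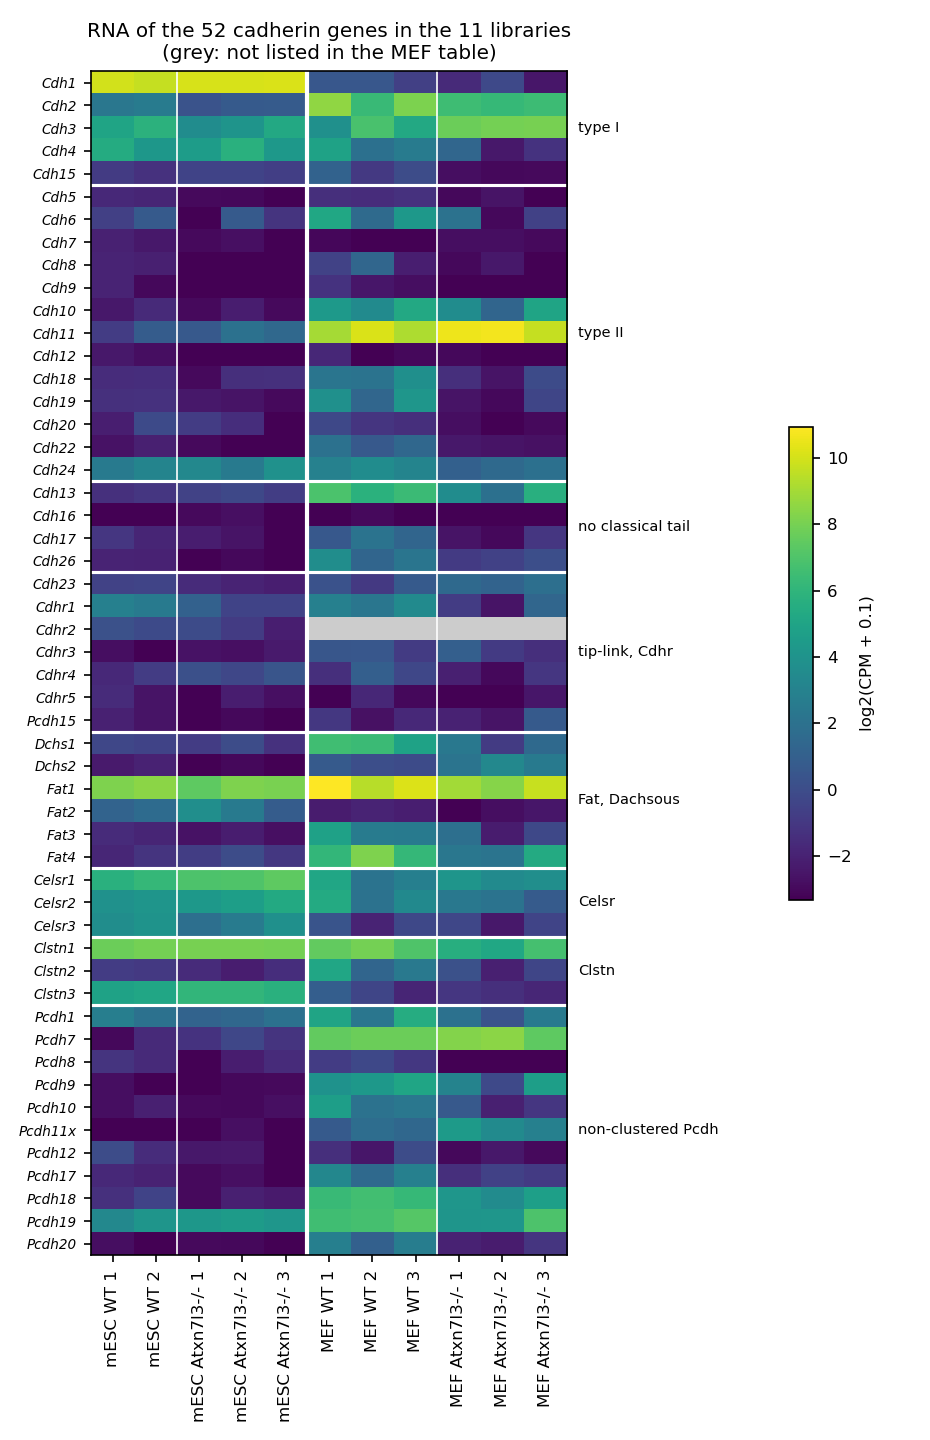
RNA level of each of the 52 cadherin genes (rows, by group) in each of the 11 libraries (columns), as log2(CPM + 0.1) with the normalization of each cell type; grey marks the gene not listed for MEFs. Cdh1 is bright in mESCs only, Cdh11 and Fat1 are bright in MEFs, and many rows are darker in Atxn7l3-/- than in WT MEFs.

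The 6 genes with the highest levels per kb of exon in mESCs were Cdh1, Clstn1, Fat1, Clstn3, Celsr1 and Cdh3. Cdh1 stood at 196 and 167 CPM per kb in WT mESCs and at 0.330, 0.335 and 0.133 in WT MEFs. Clstn1, the calsyntenin that links vesicles to kinesin, came next, at 41.3 and 47.9 CPM per kb in WT mESCs and 42.8, 60.8 and 30.5 in WT MEFs, ranges that overlap. Fat1, a giant cadherin and suppressor of growth, stood at 16.5 and 20.4 CPM per kb in WT mESCs and higher, at 137, 48.7 and 83.6, in WT MEFs. The 6 highest in MEFs over both genotypes were Cdh11, Fat1, Cdh3, Clstn1, Pcdh7 and Cdh2, but their order differed between the genotypes and libraries. Cdh3 ranked 7 by its mean in WT and 2 in Atxn7l3-/- MEFs, and Fat1 was above Cdh11 in WT replicates 1 and 3. Cdh11, the cadherin of mesenchyme and bone, stood at 64.7, 143 and 72.9 CPM per kb in WT MEFs and at 0.0472 and 0.169 in WT mESCs. Cdh2 stood at 52.2, 11.3 and 38.3 and Pcdh7 at 18.8, 23.0 and 22.2 CPM per kb in WT MEFs, so their ranges overlapped.

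WT MEFs and WT mESCs were compared in 1 fit of all 11 libraries over 19326 genes, of which 26.8% passed as higher and 27.1% as lower in MEFs. Of the 46 cadherin genes tested, 26 were higher and 5 lower in WT MEFs. The median log2 difference was 3.36 for these genes and 0.00 for all genes. A gene that is silent in mESCs passed the filter on low counts through its MEF libraries alone. The split between higher and lower and the median therefore describe the genes and are not evidence of a direction. All 9 non-clustered protocadherins called were higher in MEFs, as were 5 of the 6 Fat and Dachsous genes, whereas Celsr1 and Celsr3 were lower. The 3 largest fitted differences towards MEFs were those of protocadherins near the counting limit in mESCs, so their order relative to genes such as Cdh11 was not determined. Pcdh7 had 27244 counts in the 3 WT MEF libraries and 11 in the 2 WT mESC libraries (log2 difference 10.97 ± 0.81, SE, adjusted p = 6.09e-06). Pcdh9 had 3027 counts in WT MEFs and 2 in WT mESCs, a ratio of 1253 with a 95% counting interval of 346 to 10347 that covers counting error only. Pcdh11x had 323 counts in WT MEFs and none in WT mESCs, which is at least 46.8-fold higher when 3 counts per library stand for the absent signal. Towards mESCs the largest differences were those of Cdh1 (log2 difference -9.41 ± 0.70, SE, adjusted p = 6.09e-06), Clstn3 (-4.86 ± 0.68, adjusted p = 0.000234) and Celsr3 (-4.02 ± 0.92, adjusted p = 0.00427).

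Cdh11 (log2 difference 9.76 ± 0.88, SE, adjusted p = 1.74e-05) and Cdh2 (5.81 ± 0.62, adjusted p = 4.63e-05) were also higher in WT MEFs. Cdh3, the P-cadherin gene, lies 46054 bases from Cdh1 on chromosome 8 of mm10 (chr8:106510891-106557297 and chr8:106603351-106670246). Unlike its neighbour it did not pass the test between the cell types (log2 difference 0.65 ± 0.73, SE, adjusted p = 0.471). Cdh5, the VE-cadherin of endothelium, was at 0.0454 and 0.0392 CPM per kb in WT mESCs and 0.0728, 0.0669 and 0.0813 in WT MEFs (log2 difference 0.79 ± 0.74, adjusted p = 0.384), close to the counting limit in both.

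**Figure D2:**
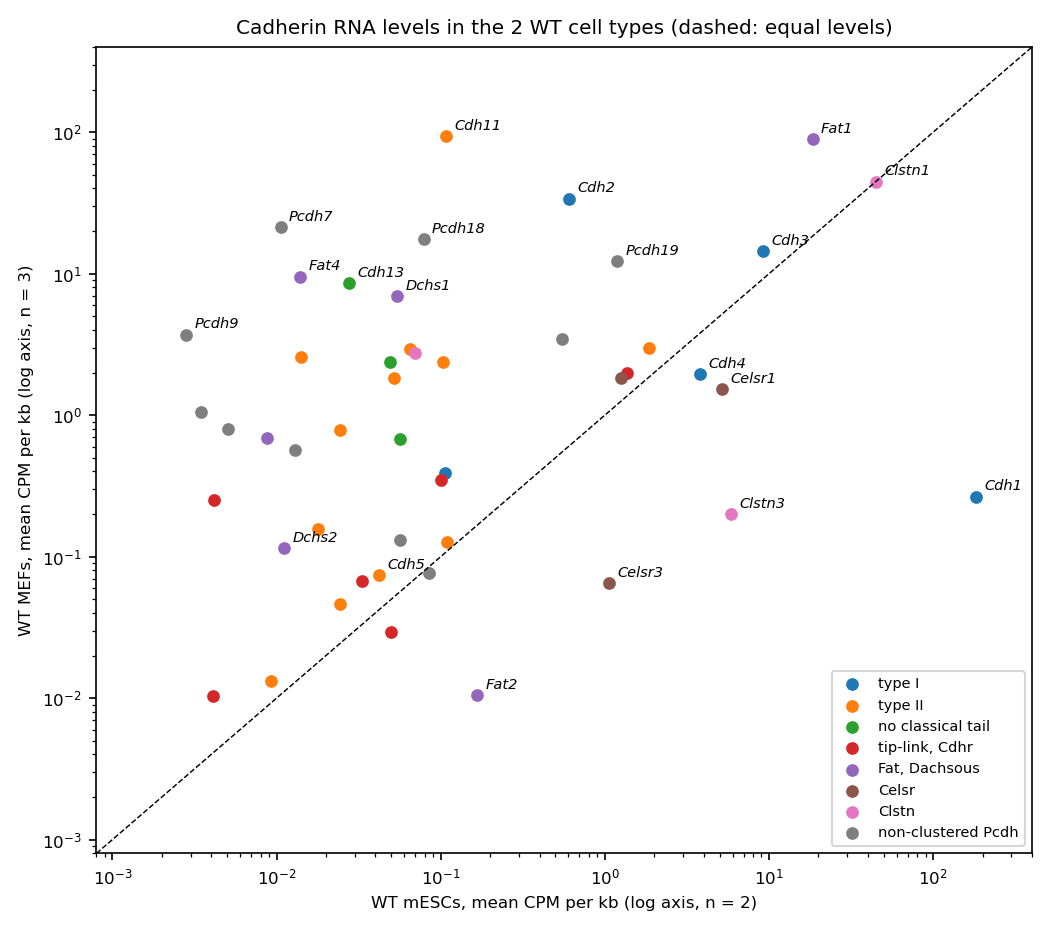
Mean level of each cadherin gene in WT MEFs (vertical, n = 3) against WT mESCs (horizontal, n = 2), in CPM per kb of exon on log axes; colours mark the groups and the dashed line equal levels. Cdh11, Cdh2 and most protocadherins lie far above the line and Cdh1, Clstn3, Celsr3 and Fat2 below it; Cdh16 and Pcdh11x, without a count in WT mESCs, are not drawn.

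In MEFs labelled Atxn7l3-/-, called Atxn7l3-/- MEFs here after their label although Atxn7l3 RNA remained, several protocadherins, type II cadherins and Dchs1 were lower than in WT MEFs. Of the 42 genes tested, 11 fell and 2 rose, beside 4.39% of all 15958 genes tested that fell and 5.01% that rose. The median log2 fold change was -2.39 for these genes and -0.06 for all genes, and 36 of the 42 were below 0, as were 52.5% of all genes. Of the 42, 31 were at least 2-fold lower, against 20.5% of all genes, but most of them did not pass the test. A gene that is silent in Atxn7l3-/- MEFs passed the filter on low counts through its WT libraries alone, so these counts describe the genes and are not evidence of a direction. All 3 libraries of 1 genotype lay beyond all 3 of the other for 22 genes that were lower and 4 that were higher in Atxn7l3-/-, where 19.8% and 20% of all genes did so. The number of genes that fell was 1 without WT replicate 3 or Atxn7l3-/- replicate 1, 3 without WT replicate 1 or Atxn7l3-/- replicate 2, and 26 with DESeq2, and none rose without WT replicate 1, WT replicate 3, Atxn7l3-/- replicate 1 or Atxn7l3-/- replicate 2. The calls over all genes moved as well. Without WT replicate 3, 77 of 16414 fell, and without Atxn7l3-/- replicate 1, 90 of 16695. Without WT replicate 1, 191 of 16268 fell, and without Atxn7l3-/- replicate 2, 86 of 16644. With DESeq2, 2349 of 29276 fell. In the 4 fits without 1 library, in this order, 120, 162, 273 and 199 of all genes rose.

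Same-numbered WT and Atxn7l3-/- MEF libraries deviated together from their group means, and a fit with the replicate number as a block moved the counts. With it, 19 cadherin genes fell and 2 rose, where 8.49% of all genes fell and 5.5% rose. Both fits called 11 of the genes. Cdh26 and Pcdh11x passed only without the block, and Cdh3, Cdh4, Cdh6, Cdh17, Cdh19, Cdhr1, Clstn2, Fat3, Pcdh1 and Pcdh10 only with it.

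Among classical cadherins, Cdh15, Cdh18, Cdh20, Cdh22 and Cdh24 fell. Cdh22, a type II cadherin of the nervous system at chr2:165111507-165234853, stood at 3.89, 1.48 and 2.60 CPM in the WT libraries and 0.0923, 0.0684 and 0.0549 CPM in the Atxn7l3-/- libraries (log2 fold change -5.14 ± 0.61, SE, adjusted p = 0.0111). The groups were far apart, and the summed counts were 379 and 9. Cdh15, the M-cadherin of skeletal muscle, stood at 2.14, 0.418 and 0.894 CPM in WT and 0.0462, 0.0228 and 0.0275 CPM in Atxn7l3-/- MEFs (log2 fold change -5.04 ± 0.84, SE, adjusted p = 0.0221). The latter are 1 or 2 counts each, and the ratio of the summed counts was 38.9 with a 95% counting interval of 14.9 to 144. Both groups were apart in Cdh15 too, with WT replicate 2 the lowest of the WT libraries. Cdh18, a type II cadherin known from the brain, stood at 4.62, 4.27 and 13.8 CPM in WT and 0.277, 0.0684 and 0.852 CPM in Atxn7l3-/- MEFs (log2 fold change -4.25 ± 1.00, SE, adjusted p = 0.0472). Cdh24, another type II cadherin, stood at 7.60, 12.2 and 8.51 CPM in WT and 1.94, 2.87 and 3.68 CPM in Atxn7l3-/- MEFs (log2 fold change -1.74 ± 0.41, SE, adjusted p = 0.0467). In both genes every WT library lay above every Atxn7l3-/- library. Cdh20, which is known from neural and neural crest cells, had 66 counts in WT and 3 in Atxn7l3-/- MEFs, a ratio of 20.1 (95% counting interval 6.60 to 100.2, adjusted p = 0.0392). Cdh26, a cadherin of epithelium without a classical tail, stood at 12.5, 2.43 and 4.54 CPM in WT and 0.439, 0.570 and 0.961 CPM in Atxn7l3-/- MEFs (log2 fold change -3.30 ± 0.74, SE, adjusted p = 0.0429), and missed the threshold with the replicate block (adjusted p = 0.0543).

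The best-known cadherins of the 2 cell types did not pass. Cdh2 stood at 388, 81.4 and 276 CPM in WT and 91.9, 74.1 and 86.7 CPM in Atxn7l3-/- MEFs (log2 fold change -1.56 ± 0.52, SE, adjusted p = 0.0978), and WT replicate 2 lay among the Atxn7l3-/- libraries. Cdh11 stood at 530.5, 1135 and 580.1 CPM in WT and 1513, 1627 and 820.0 CPM in Atxn7l3-/- MEFs (log2 fold change 0.82 ± 0.42, SE, adjusted p = 0.223), with overlapping groups. Cdh1 was between 0.0824 and 1.39 CPM in all MEF libraries (log2 fold change -1.58 ± 0.83, SE, adjusted p = 0.229). Cdh3 stood at 14.3, 117 and 38.4 CPM in WT and 212, 253 and 257 CPM in Atxn7l3-/- MEFs (log2 fold change 2.09 ± 0.70, SE, adjusted p = 0.0970). The Atxn7l3-/- libraries lay close together above all WT libraries, and the gene rose in the fit with the replicate block (log2 fold change 2.59 ± 0.59, adjusted p = 0.0487). Cdh5 had 38 counts in WT and 4 in Atxn7l3-/- MEFs (adjusted p = 0.0594). Of the type I and type II genes that passed with the block alone, Cdh19, a cadherin of Schwann cell precursors, stood at 14.0, 2.48 and 17.7 CPM in WT and 0.0692, 0.0228 and 0.687 CPM in Atxn7l3-/- MEFs (adjusted p = 0.0534 without and 0.0186 with the block), Cdh4 (R-cadherin) at 29.3, 3.77 and 5.93 and 2.54, 0.0912 and 0.330 CPM (0.119 and 0.0170) and Cdh6 (K-cadherin) at 36.4, 2.90 and 19.3 and 4.06, 0.0228 and 0.577 CPM (0.157 and 0.0245).

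**Figure D3:**
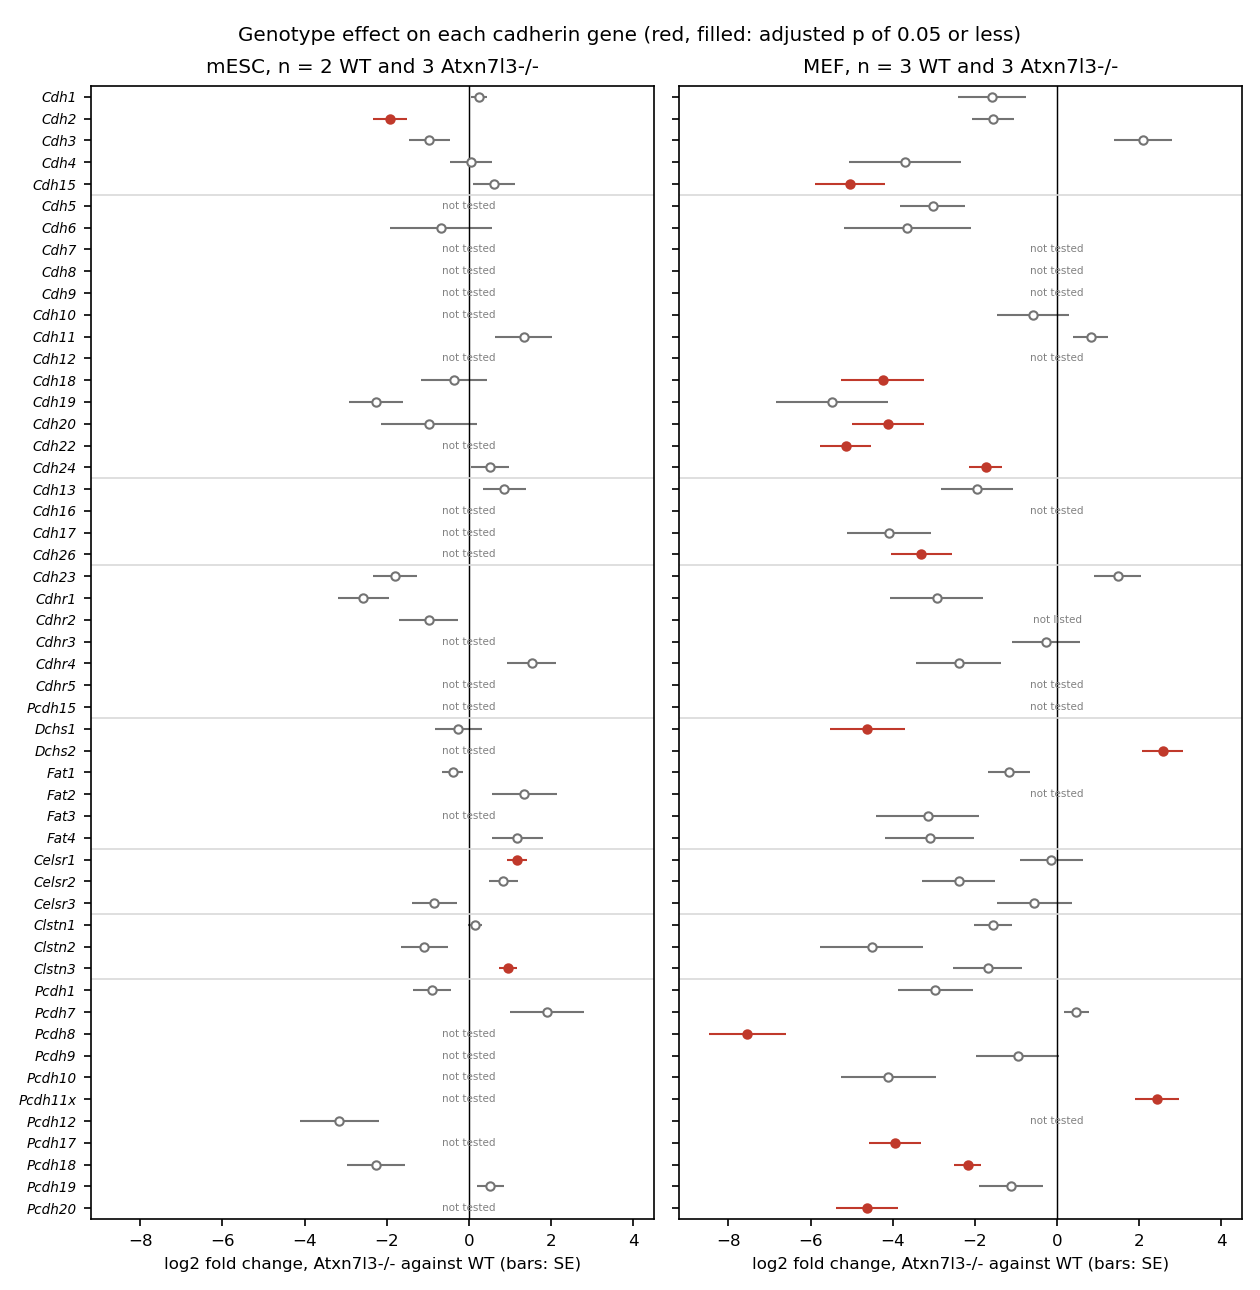
Log2 fold change of each cadherin gene in Atxn7l3-/- against WT cells with its SE (bars), for mESCs (left) and MEFs (right); filled red points passed the test at an adjusted p of 0.05 or less. In MEFs 36 of 42 points lie left of 0, while in mESCs 16 of 31 do.

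The 2 Dachsous genes moved in opposite directions. Dchs1, the ligand of Fat4, at chr7:105752990-105787654, stood at 94.5, 83.4 and 29.7 CPM in WT and 5.15, 0.456 and 2.83 CPM in Atxn7l3-/- MEFs (log2 fold change -4.62 ± 0.92, SE, adjusted p = 0.0333). Dchs2, its paralogue, at chr3:83127948-83357209, which was less abundant than Dchs1 in WT MEFs, stood at 1.54, 0.976 and 0.851 CPM in WT and 4.48, 10.1 and 5.49 CPM in Atxn7l3-/- MEFs (log2 fold change 2.57 ± 0.50, SE, adjusted p = 0.0325). No library of either gene lay within the range of the other genotype. Fat4, the receptor of Dchs1, stood at 70.9, 296 and 73.3 CPM in WT and 5.03, 4.38 and 41.9 CPM in Atxn7l3-/- MEFs (log2 fold change -3.10 ± 1.08, SE, adjusted p = 0.107), and Atxn7l3-/- replicate 3 lay above the other Atxn7l3-/- libraries. Fat1, the most abundant of the group, stood at 1974, 681 and 1169 CPM in WT and 498, 331 and 863 CPM in Atxn7l3-/- MEFs (log2 fold change -1.18 ± 0.51, SE, adjusted p = 0.163), with overlapping groups. Fat3 stood at 28.9, 5.94 and 5.54 CPM in WT and 3.67, 0.114 and 0.742 CPM in Atxn7l3-/- MEFs (adjusted p = 0.140 without and 0.0321 with the block). None of the 3 Celsr genes and none of the 3 calsyntenins passed without the block. Their log2 fold changes lay between -4.51 (Clstn2) and -0.14 (Celsr1, 0.47 with the block), and WT replicate 1 was far above the other WT libraries for Celsr1, Celsr2 and Clstn2. Of the 4 tip-link and cadherin-related genes tested, none passed without the block and Cdhr1 fell with it (adjusted p = 0.0462).

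Of the 10 non-clustered protocadherins tested, Pcdh8, Pcdh17, Pcdh18 and Pcdh20 fell and Pcdh11x rose. Pcdh8, Pcdh17 and Pcdh18 belong to the same delta subfamily. Pcdh18 was the most abundant of the genes that passed, at 82.8, 97.7 and 74.8 CPM in WT and 17.9, 11.6 and 26.8 CPM in Atxn7l3-/- MEFs (log2 fold change -2.18 ± 0.33, SE, adjusted p = 0.0184). Pcdh17 stood at 9.69, 2.85 and 7.41 CPM in WT and 0.277, 0.570 and 0.439 CPM in Atxn7l3-/- MEFs (log2 fold change -3.95 ± 0.63, SE, adjusted p = 0.0207). Pcdh20 stood at 7.04, 2.01 and 6.61 CPM in WT and 0.162, 0.114 and 0.357 CPM in Atxn7l3-/- MEFs (log2 fold change -4.62 ± 0.76, SE, adjusted p = 0.0217). In all 3 every WT library lay above every Atxn7l3-/- library. Pcdh8, known from paraxial mesoderm and neurons, had 25, 27 and 18 counts in WT and none in Atxn7l3-/- MEFs, which is at least 7.34-fold lower with 3 counts per library as the limit (adjusted p = 0.0219). Pcdh8, Pcdh17 and Pcdh20 lie on chromosome 14 with Pcdh9, each 3927683 to 4672251 bases from the next. Pcdh9 did not pass, at 15.2, 19.2 and 33.4 CPM in WT and 8.19, 0.798 and 25.8 CPM in Atxn7l3-/- MEFs (log2 fold change -0.96 ± 1.01, SE, adjusted p = 0.529).

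Both X-linked genes are protocadherins. Pcdh11x stood at 1.58, 3.32 and 2.62 CPM in WT and 22.0, 11.4 and 7.20 CPM in Atxn7l3-/- MEFs (log2 fold change 2.43 ± 0.54, SE, adjusted p = 0.0419), and missed the threshold with the block (adjusted p = 0.0583). WT replicate 3, the only MEF library without Y-linked RNA, lay between the other WT libraries. Pcdh19 stood at 95.8, 107 and 146 CPM in WT and 17.1, 18.2 and 124 CPM in Atxn7l3-/- MEFs (log2 fold change -1.13 ± 0.78, SE, adjusted p = 0.345), with Atxn7l3-/- replicate 3 inside the WT range. Pcdh7, the most abundant protocadherin, stood at 184, 218 and 211 CPM in WT and 317, 360.5 and 169 CPM in Atxn7l3-/- MEFs and did not pass (log2 fold change 0.47 ± 0.31, SE, adjusted p = 0.320). Pcdh1 and Pcdh10 fell with the block only (adjusted p = 0.0182 and 0.0156).

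The sequences before the RefSeq start sites of the 4 protocadherins and Cdh22, which fell together in MEFs, and of Dchs2, which rose, are shown to compare their promoters. RefSeq promoter sequences of GRCm38.p6 matched 37 of the 52 genes and had none for Cdh1, Cdh2, Cdh3, Cdh4, Cdh5, Cdh11, Cdh13, Cdh16, Cdh17, Cdh19, Celsr1, Dchs1, Pcdh1, Pcdh11x and Pcdh12. The 250 bases upstream of the start are printed 5′ to 3′ along the gene's strand, with CG dinucleotides, the sites of DNA methylation, in capitals. They are Pcdh8 (chr14:79771313-79771562, minus strand), Pcdh17 (chr14:84443313-84443562, plus strand), Pcdh18 (chr3:49757317-49757566, minus strand), Pcdh20 (chr14:88471397-88471646, minus strand), Cdh22 (chr2:165234738-165234987, minus strand) and Dchs2 (chr3:83127277-83127526, plus strand).
Pcdh8: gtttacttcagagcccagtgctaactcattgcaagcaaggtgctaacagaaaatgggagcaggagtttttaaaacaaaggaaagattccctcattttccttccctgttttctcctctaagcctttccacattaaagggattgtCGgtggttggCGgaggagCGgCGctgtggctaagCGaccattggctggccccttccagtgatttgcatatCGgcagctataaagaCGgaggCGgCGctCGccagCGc
Pcdh17: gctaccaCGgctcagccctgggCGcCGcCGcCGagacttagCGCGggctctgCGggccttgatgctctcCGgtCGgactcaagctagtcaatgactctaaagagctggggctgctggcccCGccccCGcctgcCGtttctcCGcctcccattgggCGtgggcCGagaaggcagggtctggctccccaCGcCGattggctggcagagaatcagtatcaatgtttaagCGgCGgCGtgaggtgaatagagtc
Pcdh18: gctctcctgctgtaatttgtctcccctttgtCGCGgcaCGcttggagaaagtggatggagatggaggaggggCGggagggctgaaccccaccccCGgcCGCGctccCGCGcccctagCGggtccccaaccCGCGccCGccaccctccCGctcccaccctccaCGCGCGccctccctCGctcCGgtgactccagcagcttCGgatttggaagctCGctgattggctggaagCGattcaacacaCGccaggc
Pcdh20: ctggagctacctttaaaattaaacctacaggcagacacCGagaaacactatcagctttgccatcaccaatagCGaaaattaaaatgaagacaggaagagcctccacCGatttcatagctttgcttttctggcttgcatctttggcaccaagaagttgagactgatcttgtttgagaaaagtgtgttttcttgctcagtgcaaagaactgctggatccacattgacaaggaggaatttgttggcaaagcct
Cdh22: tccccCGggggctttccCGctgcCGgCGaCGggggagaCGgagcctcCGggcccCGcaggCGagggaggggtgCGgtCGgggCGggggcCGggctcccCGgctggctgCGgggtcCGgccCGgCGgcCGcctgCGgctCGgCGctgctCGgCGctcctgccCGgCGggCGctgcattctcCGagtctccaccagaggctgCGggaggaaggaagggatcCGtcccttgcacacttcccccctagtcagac
Dchs2: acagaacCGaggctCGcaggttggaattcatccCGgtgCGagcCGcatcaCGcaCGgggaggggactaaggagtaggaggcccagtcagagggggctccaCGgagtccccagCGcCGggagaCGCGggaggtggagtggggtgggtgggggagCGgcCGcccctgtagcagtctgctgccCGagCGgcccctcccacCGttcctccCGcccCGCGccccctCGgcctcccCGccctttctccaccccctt

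These windows hold 11, 21, 23, 3, 30 and 22 CG dinucleotides in this order. Over all 32851 RefSeq promoters the median was 6, and 5.9% had as many as Cdh22 and 71.0% as many as Pcdh20. The windows of the genes that fell include some rich and some poor in CG, and that of Dchs2, which rose, has 22, close to Pcdh17 and Pcdh18. For Pcdh20 and Dchs2, however, the bases just after the start were found in no GENCODE M21 transcript of the gene. The start of Dchs2 is therefore less certain, and it lies 421 bases from the listed gene start. That of Pcdh20 is the listed gene start itself, although the bases after it were not matched. This check held for 28 of the 37 cadherin promoters. The E-box CACCTG, searched on both strands as CACCTG and CAGGTG, is the sequence bound by Snail and Zeb repressors. It occurred in 17.2% of all promoters, in 7 of the 37 cadherin promoters (Cdh7, Cdhr1, Cdhr4, Celsr2, Clstn3, Fat1 and Pcdh15), and in none of the 10 promoters of genes that fell in MEFs. For Pcdh15, Cdh18 (which fell), Cdh9, Fat2 and Fat1 the RefSeq start lies 722525, 487441, 49186, 24307 and 14761 bases from the listed gene start. The counts for these genes are therefore not those of the listed gene starts.

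**Figure D4:**
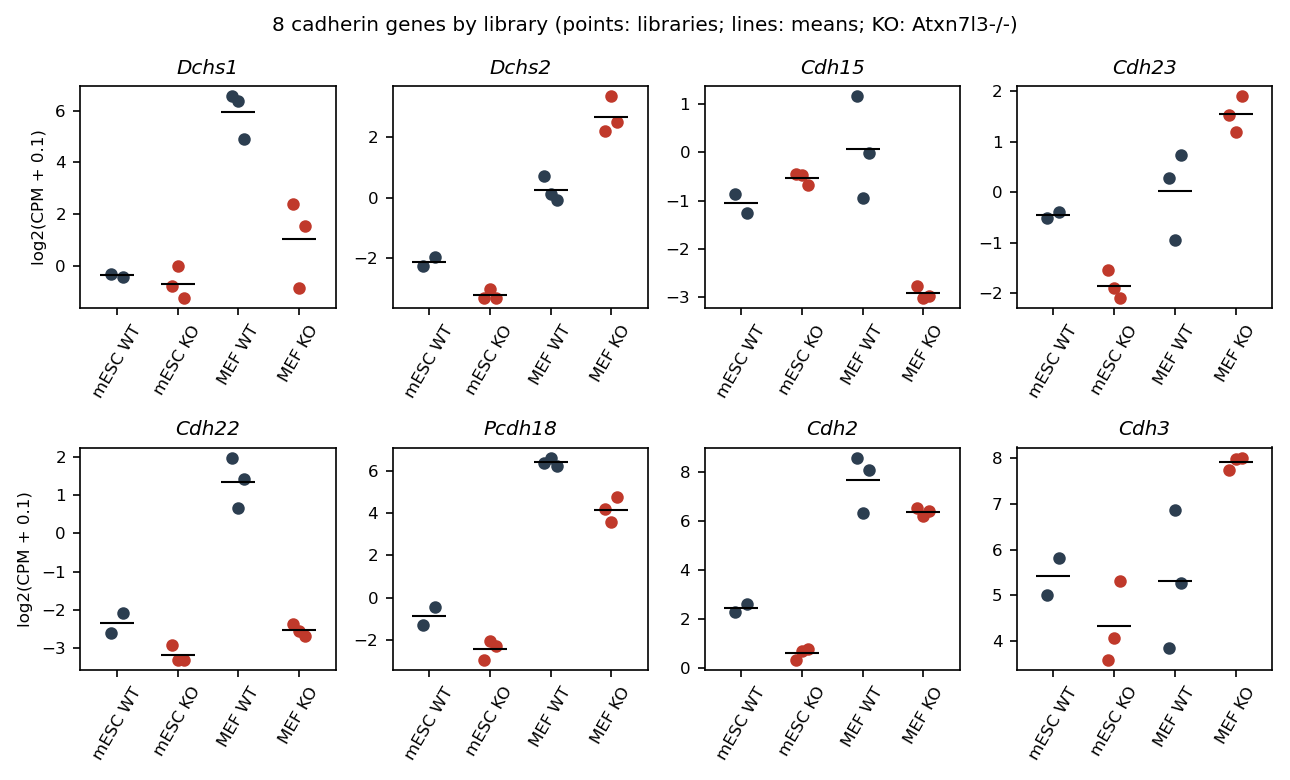
Level of 8 cadherin genes in each library as log2(CPM + 0.1), normalized within each cell type; points are libraries, lines are means of the log values, and KO stands for Atxn7l3-/-. Dchs1, Cdh15, Cdh22 and Pcdh18 drop in Atxn7l3-/- MEFs, Dchs2 is higher there, Cdh2 is low in all Atxn7l3-/- mESCs, and 1 WT MEF library of Cdh2 lies with the Atxn7l3-/- libraries.

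Markers of other cell types moved with the MEF genotype as well. Among the neural markers, Sox10, Stmn2 and Map2 fell. Sox10, a defining gene of neural crest and Schwann cells, was at 4.97 to 26.9 CPM in WT MEFs and at 0 to 0.0898 CPM in Atxn7l3-/- MEFs. Of 6 mesothelial markers 5 rose (Lrrn4, Muc16, Upk3b, Msln and Wt1), from a sum of 14.6 to 41.2 CPM to 4251 to 6111 CPM. Of the skeletal muscle markers Chrna1 fell, and the 5 listed for both cell types summed to 25.4 to 61.8 CPM in WT and 11.4 to 17.3 CPM in Atxn7l3-/- MEFs. None of 8 fibroblast and none of 5 tested endothelial markers passed without the replicate block, while with it Dcn and Pdgfra of the former rose and Kdr of the latter and the muscle marker Actc1 fell. The fibroblast markers went in both directions, with log2 fold changes of -5.12 to 3.47 and a median of -0.67 without the block. The 5 endothelial markers listed for both cell types summed to 17.8 to 78.1 CPM in WT and 5.48 to 20.6 CPM in Atxn7l3-/- MEFs. In WT MEFs this sum was mostly Kdr in replicates 1 and 3 and mostly Erg in replicate 2. With the MEF normalization, Tek stood at 0.451, 1.65 and 0.458 CPM in WT and 9.33, 7.53 and 0.220 CPM in Atxn7l3-/- MEFs. The endothelial markers therefore did not all move in the same direction. Of 8 epithelial markers 3 were tested and Krt18 rose, while the list summed to 5.16 to 19.4 CPM in WT and 10.5 to 49.5 CPM in Atxn7l3-/- MEFs. The part of these cells in the cadherin results, such as in Cdh19, Cdh15, Cdh5 or Cdh3, was not tested.

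In mESCs, 31 cadherin genes were tested, of which Celsr1 and Clstn3 rose and Cdh2 fell, beside 3.08% of all 17800 genes tested that rose and 3.88% that fell. The median log2 fold change was -0.26 for these genes and 0.04 for all genes. The genotypes did not overlap for 11 genes that were higher and 8 that were lower in Atxn7l3-/- mESCs, where 24.6% and 25.1% of all genes did so. Celsr1, a seven-pass cadherin of planar polarity, stood at 53.7 and 72.6 CPM in WT and 126, 128 and 171 CPM in Atxn7l3-/- mESCs (log2 fold change 1.17 ± 0.24, SE, adjusted p = 0.0346). Clstn3, a calsyntenin, stood at 30.1 and 34.6 CPM in WT and 67.5, 66.3 and 53.9 CPM in Atxn7l3-/- mESCs (log2 fold change 0.95 ± 0.21, SE, adjusted p = 0.0417). Cdh2 stood at 4.88 and 6.00 CPM in WT and 1.17, 1.53 and 1.61 CPM in Atxn7l3-/- mESCs (log2 fold change -1.92 ± 0.42, SE, adjusted p = 0.0409). In each of the 3 genes the genotypes did not overlap. With the replicate number as a block Cdh2 missed the threshold (adjusted p = 0.0511). The calls depended on single libraries, since without WT replicate 1, WT replicate 2 or Atxn7l3-/- replicate 1 none of the 3 genes passed. This was not particular to these genes. None of all 18568 genes passed without WT replicate 1 and none of 18748 without WT replicate 2. Without Atxn7l3-/- replicate 1, none of 17530 rose and 3 fell. Clstn3 also missed the threshold among the 3 lines with Y-linked RNA (adjusted p = 0.0621), an alternative chosen after seeing the data in which the lone Atxn7l3-/- line is assumed to vary like the WT lines and in which Celsr1 (0.00865) and Cdh2 (0.0499) passed.

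Cdh1, the dominant cadherin of these cells, stood at 1009 and 840.1 CPM in WT and 1071, 1090 and 1135 CPM in Atxn7l3-/- mESCs and did not pass (log2 fold change 0.25 ± 0.19, SE, adjusted p = 0.423). Cdhr1, a cadherin of photoreceptors, just missed the threshold, at 7.37 and 5.86 CPM in WT and 2.07, 0.643 and 0.633 CPM in Atxn7l3-/- mESCs (log2 fold change -2.57 ± 0.62, SE, adjusted p = 0.0502). Cdh3 stood at 32.3 and 56.7 CPM in WT and 12.0, 16.7 and 39.6 CPM in Atxn7l3-/- mESCs (log2 fold change -0.97 ± 0.50, SE, adjusted p = 0.237), with Atxn7l3-/- replicate 3 inside the WT range. Cdh11 stood at 0.473 and 1.65 CPM in WT and 1.50, 3.84 and 2.69 CPM in Atxn7l3-/- mESCs (log2 fold change 1.33 ± 0.70, SE, adjusted p = 0.240). The fibroblast markers moved with it, summing to 24.8 and 98.1 CPM in WT and 267 to 388 CPM in Atxn7l3-/- mESCs with Col1a1 rising, and since these lines had been passaged on feeders the part of such cells in the level of Cdh11 was not tested. The 21 cadherin genes not tested in mESCs had few counts, Cdh5 for example 10 and 8 in WT and 1, 1 and 0 in Atxn7l3-/- mESCs.

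Whether MEFs and mESCs responded differently to the genotype was tested with an interaction term. It passed for 4 of 46 cadherin genes, Cdh15, Dchs1, Dchs2 and Cdh23, beside 11.4% of all genes, so the share was not above that of all genes. Cdh15 fell in MEFs and stood at 0.451 and 0.317 CPM in WT and 0.632, 0.620 and 0.528 CPM in Atxn7l3-/- mESCs (difference of log2 fold changes -5.60 ± 1.03, SE, adjusted p = 0.0115). Dchs1 stood at 0.709 and 0.634 CPM in WT and 0.481, 0.882 and 0.317 CPM in Atxn7l3-/- mESCs (difference -4.30 ± 1.16, adjusted p = 0.0397). Cdh23, the upper part of the tip link of hair cells, stood at 0.601 and 0.656 CPM in WT and 0.241, 0.167 and 0.132 CPM in Atxn7l3-/- mESCs, and at 1.11, 0.418 and 1.57 and 2.79, 2.19 and 3.65 CPM in MEFs (difference 3.33 ± 0.81, adjusted p = 0.0292), and passed in neither cell type alone. Dchs2 (difference 6.12 ± 1.08, adjusted p = 0.0100) had only 5 and 7 counts in WT and 0, 1 and 0 in Atxn7l3-/- mESCs, so the size of its difference rests on few reads. With the replicate block, 4 genes passed beside 7.15% of all genes, of which Cdh15 and Dchs2 were among the first 4 and Cdh3 and Cdh4 were not. The number was 0 without WT mESC replicate 2, 1 without WT mESC replicate 1, 2 without Atxn7l3-/- mESC replicate 3 and 12 without Atxn7l3-/- MEF replicate 3. Over all genes it moved too, in this order to 322 of 20269, 253 of 20240, 1075 of 19152 and 3140 of 19324.

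The partners of cadherins at the junction showed few calls, near the share of all genes. Of all genes tested, 6.96% passed in mESCs and 9.41% in MEFs, and these shares also apply to the lists of partners below. The median log2 fold change of the junction list was 0.04 in mESCs and -0.33 in MEFs, against 0.04 and -0.06 for all genes. Among catenins and junction adaptors, none of 12 genes tested passed in mESCs, and 1 of 13 passed in MEFs, where Ctnnd2, a delta-catenin of neurons, also fell with the replicate block. The gene that passed was Nectin2, an immunoglobulin-like adhesion receptor, at 47.9, 43.1 and 65.2 CPM in WT and 148, 149.8 and 153 CPM in Atxn7l3-/- MEFs (log2 fold change 1.53 ± 0.21, SE, adjusted p = 0.0154). The log2 fold changes in MEFs were -0.33 ± 0.22 for Ctnnb1 (beta-catenin), -0.33 ± 0.23 for Ctnna1 (alpha-catenin), -0.15 ± 0.37 for Jup (plakoglobin) and -0.81 ± 0.22 for Ctnnd1 (a delta-catenin, adjusted p = 0.0648), and in mESCs they were -0.13, -0.30, -0.90 and -0.60. Ctnnb1 RNA stood at 944, 896 and 870.1 CPM in WT and 676, 669 and 807 CPM in Atxn7l3-/- MEFs.

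Of the E-box repressors of Cdh1, none of 6 passed in mESCs and none of 7 in MEFs, while 6 of 7 were higher in WT MEFs than in WT mESCs. Zeb2 differed most clearly between the cell types (log2 difference 7.87 ± 0.58, adjusted p = 6.01e-06), and its genotype effect in MEFs was 0.03 ± 0.23, that of Zeb1 -0.24 ± 0.27 and that of Snai1 -2.08 ± 0.94. Snai2 stood at 32.4, 95.1 and 56.2 CPM in WT and 7.62, 9.65 and 30.4 CPM in Atxn7l3-/- MEFs (log2 fold change -1.95 ± 0.64, SE, adjusted p = 0.0938), with all Atxn7l3-/- libraries below all WT libraries. In mESCs the log2 fold changes were 0.66, -0.50, -1.17 and 0.57 for Snai1, Snai2, Zeb1 and Zeb2.

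Among 10 planar polarity partners, Fjx1 fell in both cell types and no other gene passed. With the replicate block none of them passed in mESCs, Fjx1 included, while in MEFs Fjx1 and Dvl3 fell and Prickle2 rose. Fjx1 is the relative of the fly kinase that phosphorylates Fat and Dachsous. It stood at 2.53 and 2.33 CPM in WT and 0.331, 0.715 and 0.343 CPM in Atxn7l3-/- mESCs (log2 fold change -2.38 ± 0.54, SE, adjusted p = 0.0429), and at 21.3, 15.8 and 32.9 CPM in WT and 2.33, 0.525 and 3.57 CPM in Atxn7l3-/- MEFs (log2 fold change -3.45 ± 0.72, SE, adjusted p = 0.0378). Of the cadherin-cleaving proteases, none of 7 passed in mESCs and 1 of 8 in MEFs, Psen2, a catalytic subunit of gamma-secretase, and with the replicate block Mmp3 also rose and Furin fell in MEFs. Psen2 stood at 16.7, 20.1 and 19.3 CPM in WT and 104, 76.3 and 91.3 CPM in Atxn7l3-/- MEFs (log2 fold change 2.28 ± 0.21, SE, adjusted p = 0.00620). In WT cells, 7 of these 8 proteases were higher in MEFs and Pcsk6 was lower, 4 of 13 junction genes were higher and 1 lower, and 5 of 10 polarity genes were higher and 2 lower. Of all genes, 26.8% were higher and 27.1% lower in WT MEFs.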

How the data were processed

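RNA was measured in 11 libraries of mESCs and MEFs. Per the labels, TruSeq Stranded mRNA libraries were made from 700 ng of total RNA, and the submitters' processing notes name bcl2fastq 2.17.1.14, cutadapt 1.10, STAR 2.5.3a, HTSeq 0.6.1p1, DESeq2 1.16.1 and mm10. Which annotation was counted, and whether by strand, is not given in the sources used here, so reads of overlapping genes may be split or shared. The authors deposited 1 table per cell type with raw read counts, a normalized signal (the count divided by a DESeq2 size factor, also per kb of median transcript length) and their own log2 fold changes and p-values, which were not used. The raw counts were analysed, and the normalized signal per kb served only in the alternative with the study's expression threshold. Levels between genes were taken per kb of the union of exons of GENCODE M21. The study describes 1 further WT mESC dataset that it excluded, which was not analysed here.

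Counts were fitted with edgeR 4.0.16 in R 4.3.3 (filterByExpr, TMM, quasi-likelihood test), separately in each cell type for the genotype, and in 1 fit of all 11 libraries for the interaction and for the cell types. Adjusted p is Benjamini-Hochberg over all genes tested, and a gene was called at an adjusted p of 0.05 or less. SE is the log2 fold change divided by the square root of F. All p-values measure the spread between these lines or embryos. In MEFs the deviations of same-numbered libraries from the group means correlated at 0.473, 0.161 and 0.240, while pairs with different numbers ranged from -0.262 to 0.0516. Deviations from a group mean cancel within the group, so the values of unlike pairs are not independent of those of same-numbered pairs. The pairing comes from the numbers in the labels alone, since each culture is its own embryo. Counting intervals are exact (Clopper-Pearson) and cover counting error only.

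The text names Cdh1, Cdh2, Cdh5, Cdh11, Atxn7l3, every member called in a knockout comparison, the 3 largest differences in each direction between cell types, the 6 highest members in each cell type, genes of the partner lists (junction, E-box, polarity, protease) called in a knockout comparison, and Ctnna1, Ctnnb1, Ctnnd1, Jup, Snai1, Snai2, Zeb1 and Zeb2. Marker genes called are named only in part. Other named members illustrate a group or passed only with the block and were chosen after their values were seen. The members and lists were chosen with earlier results of these data known. The alternatives changed the normalization (RLE or upper quartile), the filter (none, or 10 or more counts per library), or the tool (DESeq2 1.42.0 without the edgeR filter), or used the replicate block, a GC correction (lowess span 0.3), removal of X and Y genes, 1 fit of all libraries, the study's selection (at least 2-fold and a median over 10 normalized reads per kb), each library left out, and, chosen after seeing the data, only the mESC lines with Y-linked RNA. Scripts were tested on simulated data. Tables and figures were made with Python, pandas and matplotlib. A neural marker, and the sum of the neural list, are not reported here.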

Additional observations from a re-analysis of the deposited data

Results flagged for a closer look

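The genotype effect differed between MEFs and mESCs by the test of the interaction for 4 cadherin genes, with differences of log2 fold changes (MEFs minus mESCs) of -5.60 for Cdh15, 3.33 for Cdh23, -4.30 for Dchs1 and 6.12 for Dchs2. Cdh15 passed in 17 of its 20 alternatives and Dchs2 in 19 of 20, Cdh23 in 13 of 20 and Dchs1 in 11 of 21. Dchs2 missed the threshold without WT mESC replicate 2 (adjusted p = 0.0576). Without WT mESC replicate 2 none of the cadherin genes passed, without WT mESC replicate 1 only 1 did, and without Atxn7l3-/- MEF replicate 3 the number was 12. Over all genes these 3 fits called 322 of 20269, 253 of 20240 and 3140 of 19324. No group had the 4 samples needed to test single libraries as outliers.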

How the results depend on the processing

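Among the cadherin genes recomputed under all alternatives, none turned direction in either knockout comparison or between the cell types. Of the other genes tested in MEFs, Celsr1 changed from -0.14 to 0.47 with the replicate block, passing in neither. In mESCs, where 2 genes rose and 1 fell, the number that rose was 1 with the GC correction and with the study's selection and 0 with the GC correction and replicate block or with 1 fit of all libraries. The number that fell was 2 with RLE, upper-quartile, DESeq2, a filter of 10 counts, the GC correction or no X and Y genes, 3 with the replicate block with or without the GC correction (Cdh3, Cdhr1 and Celsr3, but not Cdh2), 4 without a filter or among lines with Y-linked RNA, and 0 in 1 fit of all libraries. Leaving out 1 library gave 0 to 2 that rose and 0 to 2 that fell. Over all genes, 0 to 1061 rose and 0 to 1181 fell with 1 library left out. In 1 fit of all libraries, 144 of 19326 rose and 302 fell. In these 2 pairs of mESCs same-numbered libraries did not deviate together (r = 0.00777 and -0.172), so the block there uses a number only.

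In MEFs, where 2 genes rose and 11 fell, the number that rose was 4 with DESeq2 and 1 with the GC correction, with or without the block, or without X and Y genes, and 0 to 2 with 1 library left out. The number that fell was 26 with DESeq2, 22 in 1 fit of all libraries, 19 with the replicate block, 7 with the GC correction or the study's selection, and 5 with at least 10 counts in every library, which tests 23 of the genes. Leaving out 1 library gave 1 to 15, with 1 gene (Cdh22) left without WT replicate 3 or Atxn7l3-/- replicate 1, 3 without WT replicate 1 or Atxn7l3-/- replicate 2, and 15 without Atxn7l3-/- replicate 3. Cdh22 fell in all 16 of its alternatives (adjusted p up to 0.0476). The cause of these moves was not tested. Over all genes, DESeq2, run without the edgeR filter, called 1616 higher and 2349 lower in MEFs against 800 and 701 with edgeR. In mESCs it called 1714 and 1711 against 548 and 690. The calls over all genes in MEFs moved with the other alternatives too. The number that fell was 2056 in 1 fit of all libraries, 1355 with the replicate block and 517 with the GC correction. It was 520 with the study's selection and 332 with at least 10 counts in every library. With 1 library left out, 120 to 989 of all genes rose and 77 to 1049 fell.

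The number of interactions, 4, was 12 with DESeq2, 2 with a filter of 10 counts, which leaves 12 of the genes, and 0 to 12 with 1 library left out. Over all genes the number, 2205, was 4264 with DESeq2, 2045 of 11887 with that filter and 253 to 3140 with 1 library left out. Between cell types, 26 higher and 5 lower became 7 and 1 with that filter, and 20 to 27 and 4 to 5 with 1 library left out. Differences of genotype effects that had not passed changed sign for Cdh2 (-0.047 with the GC correction), Cdh11 (0.20 without WT mESC replicate 1, with 1 library left out -1.63 to 0.20) and Cdh5 (-0.34 with the replicate block, -0.11 with the block and GC correction, -0.24 without Atxn7l3-/- mESC replicate 3 and -0.91 without Atxn7l3-/- MEF replicate 2, with 1 library left out -0.91 to 0.79). Of the single values of named genes under all alternatives, 568 kept their direction and side of the threshold, 110 lost and 6 gained significance.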
